A study of Mus musculus with 24 samples.

Results

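The early miRNA response of the mouse carotid intima to partial ligation is described here from 12 of the 24 arrays of the series, those taken 12 h after surgery. Male C57Bl6 mice of 6 to 8 weeks underwent surgery in which all but one caudal branch of the left carotid was tied, which leaves that artery with low and oscillatory flow. The inner layer of the left (ligated) and of the right (untied) carotid was flushed out with qiazol 12 h later, total RNA was taken with the miREasy kit, and the miRNAs were labelled with Cy3 and hybridised to Illumina bead arrays of 655 probes. Each artery has 6 arrays, of which arrays 1 and 4, 2 and 5, and 3 and 6 are repeat arrays of 1 sample and were averaged, so that n = 3 samples per artery. All samples came from the same genotype, and both arteries came from operated mice, so that altered flow, the surgery and the side of the body cannot be told apart. The labels do not say which animals, or how many, stand behind a sample number, so the p-values measure only how these samples spread, and part of that spread may be technical. The groups taken at 48 h, 6 samples per artery, are used only where a 12 h value is set beside a later one.

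A miRNA is a short RNA cut from a hairpin precursor. It guides Argonaute proteins to messenger RNAs that pair with its seed, bases 2 to 8 from its 5′ end, and lowers their stability or translation. Either arm of the hairpin can yield a mature miRNA, and in the older names used here the star marks the less abundant arm. Arterial endothelium senses shear stress, and several miRNAs of endothelial cells are known to differ between steady laminar flow and the disturbed flow that precedes plaque formation.

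The mature sequences below are those the results turn on. They are the target sequences of the deposited table, written as RNA with the seed in capitals, and positions are given for build GRCm38.p6 where RefSeq's mature sequence matched at 1 place (338 of the 430 tested probes had any RefSeq match). First come the miRNAs past the test and, for each, the probe closest to it, a seed mate or the other arm of its hairpin.
miR-291b-5p: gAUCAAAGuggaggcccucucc
miR-291a-5p: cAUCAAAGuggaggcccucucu
miR-872*: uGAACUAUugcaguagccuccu
miR-872: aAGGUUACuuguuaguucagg

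miR-291b-5p lies at chr7:3219494-3219515 on the plus strand, within the annotated spans of D7Ertd143e and Nlrp12, and miR-291a-5p lies at chr7:3218932-3218953 in the same spans. miR-872*, RefSeq's mmu-miR-872-3p, lies at chr4:94665206-94665227 on the plus strand inside Ift74, a gene of intraflagellar transport, and miR-872 lies at chr4:94665167-94665187. The table of genes used for this gives no exons, so exon and intron were not told apart.

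The next sequences belong to miRNAs whose 3 left samples all lay above the 3 right ones without passing the test.
miR-9: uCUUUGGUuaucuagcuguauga
miR-1194: gAAUGAGUaacugcuagauccu
miR-154: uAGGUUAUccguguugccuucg
miR-93*: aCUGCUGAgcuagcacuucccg
miR-511: aUGCCUUUugcucugcacuca
miR-190: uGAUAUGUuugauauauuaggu
miR-467f: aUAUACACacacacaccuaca
miR-466i: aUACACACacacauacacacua

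The last set belongs to miRNAs whose 3 left samples all lay below the right ones.
miR-742*: uACUCACAugguugcuaauca
miR-764-3p: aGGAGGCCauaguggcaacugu
miR-193b: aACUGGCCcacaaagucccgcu
miR-155: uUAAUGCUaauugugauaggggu
miR-574-5p: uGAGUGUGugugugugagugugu
let-7d*: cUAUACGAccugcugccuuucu
miR-21: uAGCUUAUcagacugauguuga

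Within this last set miR-155, miR-193b, miR-574-5p, let-7d*, miR-21 and miR-742* map to chr16:84714143-84714165, chr16:13449570-13449591, chr5:64970328-64970350, chr13:48536024-48536045, chr11:86584120-86584141 and chrX:66780412-66780432. No pair of the miRNAs called, of smallest p among the separated ones or detected in 1 artery only had the same seed, those on chromosomes whose sequences are not shown left aside.

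Signals were background-corrected, quantile-normalised, which gives every array the same distribution of values, and put on the log2 scale. A probe was tested when its detection p, the array's own test of signal against background, was under 0.05 on at least 3 arrays of 1 artery. This kept 430 of 655 probes. Between 364 and 431 probes were detected per array, with median raw signals of 332 to 1030. Repeat arrays of a sample had rank correlations of 0.986 to 0.998, against 0.805 to 0.874 for different samples of an artery and 0.785 to 0.877 for a left against a right array. The median probe had an SD of 0.0972 (left) and 0.105 (right) log2 units between repeat arrays and 0.417 and 0.389 between samples, so samples differed by more than repeat hybridisations did. Right sample 1 stood apart from its label: its mean rank correlation was 0.867 with the left samples and 0.847 with the other right ones. Each left sample had more probes detected on both its arrays (394 to 421) than any right sample (348 to 390), and the part of this in the changes below was not tested.

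The tissue was checked against miRNAs known from particular cell types. All 4 endothelial markers (miR-126-3p, miR-126-5p, miR-221 and miR-222) were detected on all 12 arrays, and their summed normalised signal was 55015 to 57940 in left and 52954 to 56829 in right samples. Quantile normalisation holds the brightest probes near fixed values, and miR-126-5p was at 14.54 in all 3 left samples. The near-equal sums are therefore no measure of how much endothelium each sample held. miR-143 and miR-145, miRNAs of smooth muscle, were also detected on all 12 arrays, while miR-145* was detected on none. The smooth muscle sum was 19956 to 29275 on the left and 27522 to 30926 on the right. Markers of other cell types were detected on all 12 arrays too: erythroid miR-451, miR-486 and 1 of the probes for miR-144, fibroblast miR-214 and miR-199a-5p, epithelial miR-200b and miR-203, and cardiac miR-208b. So were leukocyte miR-150, miR-155, miR-223 and miR-142-5p, muscle miR-133a, and 1 of the probes for neuronal miR-128. The erythroid sum was 7224 to 7877 on the left and 3940 to 9618 on the right, the fibroblast sum 21985 to 29274 and 18162 to 28218, and the epithelial sum 5068 to 8546 and 5531 to 10995. All 3 sums overlapped between the arteries. Neuronal miR-124 and miR-137, hepatic miR-122, cardiac miR-208a and epithelial miR-200a and miR-200c were detected on no array. In such a bulk sample fewer cells of a type and less RNA per cell cannot be told apart.

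At 12 h, 2 of the 430 tested miRNAs passed an adjusted p of 0.05 (0.465%), both higher in the ligated left carotid, and none was lower (limma with Benjamini-Hochberg adjustment over all 430). Both met the detection filter only through the left arrays, and their right arrays were at background. With the replicate number as a block, a pairing the labels do not state, neither passed (limma adjusted p = 0.0907 for miR-291b-5p and 0.213 for miR-872*). Without adjustment 41 probes (9.53%) had a p under 0.05 in the main fit. The samples of the arteries did not overlap for 82 probes (19.1%): 26 (6.05%) with the left above and 56 (13%) with the left below. With so few samples per artery some probes separate, or reach such an unadjusted p, by chance. Neither count is therefore a set of calls, and the separated probes below are described only.

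miR-291b-5p comes from the gene cluster of miR-290 through miR-295, known from early embryos and embryonic stem cells. It had normalised log2 signals of 11.25, 11.05 and 11.18 in the left samples and 6.00, 6.02 and 6.17 in the right samples. All 3 left samples were high and close together and all 3 right ones were at background. The unnormalised signals were 2002 to 3232 on the 6 left arrays and 100 to 156 on the 6 right arrays, and the probe was detected on 6 of 6 left and 0 of 6 right arrays. The fitted difference was 5.09 ± 0.32 log2 units (SE, n = 3 per artery; limma adjusted p = 0.00208). Because the right arrays hold no signal above background, the change is given as a bound of at least 10.6-fold higher on the left. That bound sets the left mean against the lowest signal among detected probes or the probe's own signal, whichever was higher on each right array.

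None of the other members of the cluster passed the test. Of 14 cluster probes 8 were tested, 3 above and 5 below 0 with a median of −0.38, beside −0.05 for all tested probes, against a background of 0.465% of all tested probes called. The opposite arm of the same hairpin, miR-291b-3p, had values of 9.27, 6.83 and 7.97 on the left and 5.75, 9.17 and 5.78 on the right. Its samples overlapped, with a difference of 1.12 ± 1.17 (SE; limma adjusted p = 0.765). miR-291a-3p and miR-295, which carry the AAGUGCU seed known from embryonic stem cells, were lower on the left in all samples by 0.52 and 0.90 log2 units without passing the test (limma adjusted p = 0.564 and 0.497), and under scaling to the 75th percentile they were at 0.07 and −0.30. 4 members, among them miR-291a-5p, were detected on no array.

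miR-291a-5p is the closest sequence to miR-291b-5p on the array and the only other probe with its AUCAAAG seed. The mature sequences are identical at 20 of 22 bases and differ at their ends, G1C and C22U, counted from the 5′ end with the miR-291b-5p base first. Their deposited probes cover different stretches, which are shown with the 13-base run they share in capitals.
probe for miR-291b-5p: gatcaAAGTGGAGGCCCT
probe for miR-291a-5p: AAGTGGAGGCCCTctct

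The miR-291b-5p probe starts at base 1 of its miRNA and the miR-291a-5p probe at base 6 of its own. The miR-291a-5p probe had mean log2 signals of 5.81 ± 0.02 on the left and 5.89 ± 0.05 on the right (SD, n = 3), with no array above background. The probes for these near-identical miRNAs thus gave opposite readings on the same 6 left arrays, signal from the one and none from the other.

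miR-872* had log2 signals of 9.94, 10.89 and 11.03 in the left and 6.79, 7.28 and 7.29 in the right samples. The groups were far apart, and the left samples spread more widely than those of miR-291b-5p. It was detected on 6 of 6 left and 0 of 6 right arrays, at 926 to 3256 unnormalised units against 192 to 331. The difference was 3.50 ± 0.44 (SE, n = 3 per artery; limma adjusted p = 0.0497), a bound of at least 7.32-fold. This call sits at the threshold: leaving out any one sample raised the adjusted p to between 0.0567 and 0.148. The opposite arm, miR-872, was detected on all 12 arrays with values of 9.28, 9.39 and 8.42 on the left and 8.51, 8.83 and 8.63 on the right. These samples overlapped and the difference was 0.38 ± 0.40 (SE; limma adjusted p = 0.777).

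**Figure D1:**
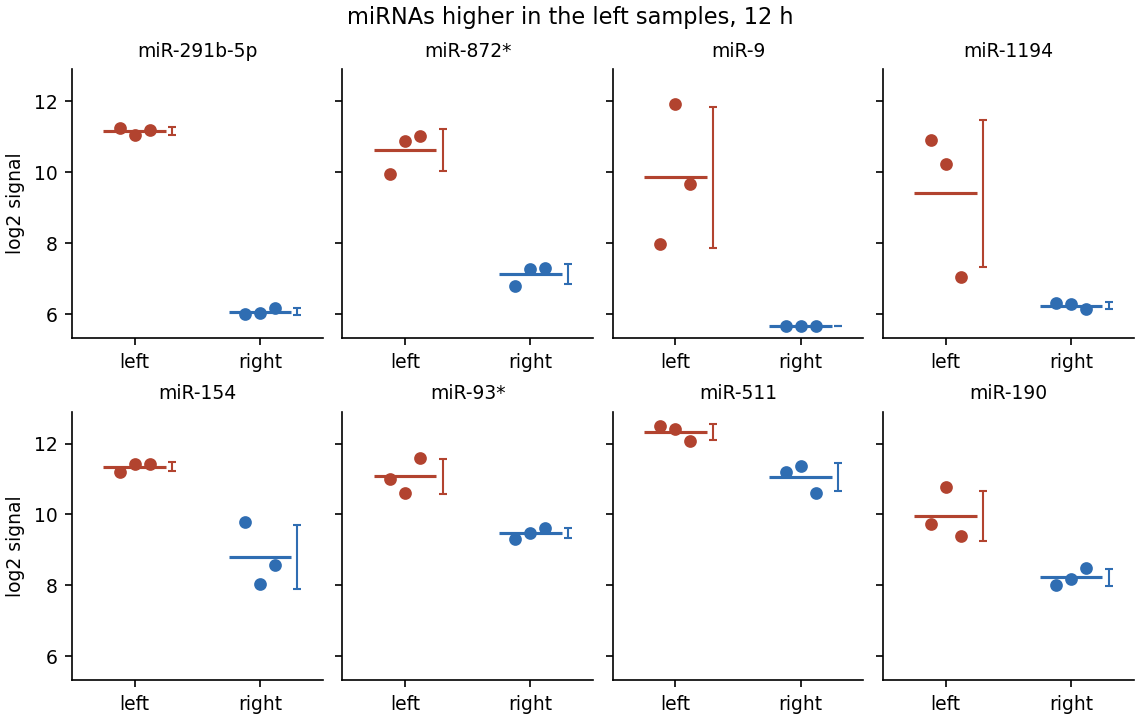
Normalised log2 signal (vertical axis) of 8 miRNAs in the 3 left (red) and 3 right (blue) samples at 12 h, 1 point per sample, with the mean as a horizontal line and bars of 1 SD. The arteries separate in every panel, and the left samples of miR-9 (7.97 to 11.93) and miR-1194 (7.05 to 10.92) are spread far more widely than those of miR-291b-5p (11.05 to 11.25).

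Detection alone, which does not depend on the normalisation, picked out 4 of the 655 probes (0.611%) as present on all 6 left and no right arrays, and 0 (0%) the other way round. They were miR-291b-5p, miR-872*, miR-9 and miR-1194. miR-9, best known from neurons and also induced by NF-kB in human monocytes, was at 7.97, 11.93 and 9.68 on the left and at 5.67 in each right sample. Each left sample was above background, but they differed widely among themselves, from 386 unnormalised units on the lowest array to 4344 on the highest. Its difference of 4.20 ± 1.01 (SE) did not pass the test (limma adjusted p = 0.251), with a bound of at least 4.33-fold. With the repeat arrays kept apart and the sample as a random block, its limma adjusted p was 0.0145. That fit takes 12 arrays and 1 correlation shared by all probes, while each artery still has 3 samples. Its p-values can be too small where repeat arrays nearly coincide, as here, so it adds no support. miR-1194 was at 10.92, 10.23 and 7.05 on the left and 6.30, 6.28 and 6.13 on the right, so that left sample 3 lay less than 1 log2 unit above the right samples (3.17 ± 1.05 SE; limma adjusted p = 0.373; at least 3.15-fold).

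miR-154 had every left sample above every right one and was detected on all 12 arrays. It belongs to the imprinted Dlk1-Dio3 cluster and was at 11.21, 11.43 and 11.41 on the left and 9.78, 8.03 and 8.57 on the right. The left samples agreed closely and the right ones ranged over more than 1 log2 unit, giving 2.56 ± 0.52 (SE; limma adjusted p = 0.206). Of the 75 probes for that cluster 44 were tested, 22 above and 22 below 0 with a median of −0.01, and none passed the test.

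miR-190, within the talin gene Tln2, was at 9.73, 10.76 and 9.39 against 8.00, 8.19 and 8.49, a difference of 1.73 ± 0.47 (SE). miR-93*, whose hairpin lies within the replication gene Mcm7, was at 10.61 to 11.60 against 9.32, 9.48 and 9.61, a difference of 1.60 ± 0.38 (SE). Both separated the arteries by more than either artery's spread without passing the test (limma adjusted p = 0.297 and 0.251). miR-511, hosted by the macrophage mannose receptor gene Mrc1, was at 12.50, 12.42 and 12.07 on the left and 11.19, 11.38 and 10.61 on the right (1.27 ± 0.30 SE; limma adjusted p = 0.251). miR-223, a myeloid miRNA, lay above in the same way at 13.17, 13.31 and 12.88 against 12.00, 12.48 and 12.78, with a difference of 0.70 ± 0.23 (SE; limma adjusted p = 0.373). The 5 leukocyte markers, miR-223 among them, split 2 above and 3 below 0, with miR-155 and miR-142-5p lower in every left sample.

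miR-1186 was at 13.91, 13.96 and 13.71 on the left and 13.22, 13.43 and 13.08 on the right. Its difference of 0.62 ± 0.11 (SE) was small but wider than the spread of either artery, and the adjusted p was 0.201 (limma). solexa-3253-144, a sequencing-derived entry whose target contains RefSeq's mmu-miR-3473b (chr10:41670774-41670793, within Ccdc162), was at 12.92, 12.79 and 12.61 against 11.84, 11.89 and 12.09. The samples within each artery lay close together, and the difference was 0.84 ± 0.16 (SE; limma adjusted p = 0.201). With the random block the limma adjusted p was 0.0380, under the same limit as for miR-9.

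**Figure D2:**
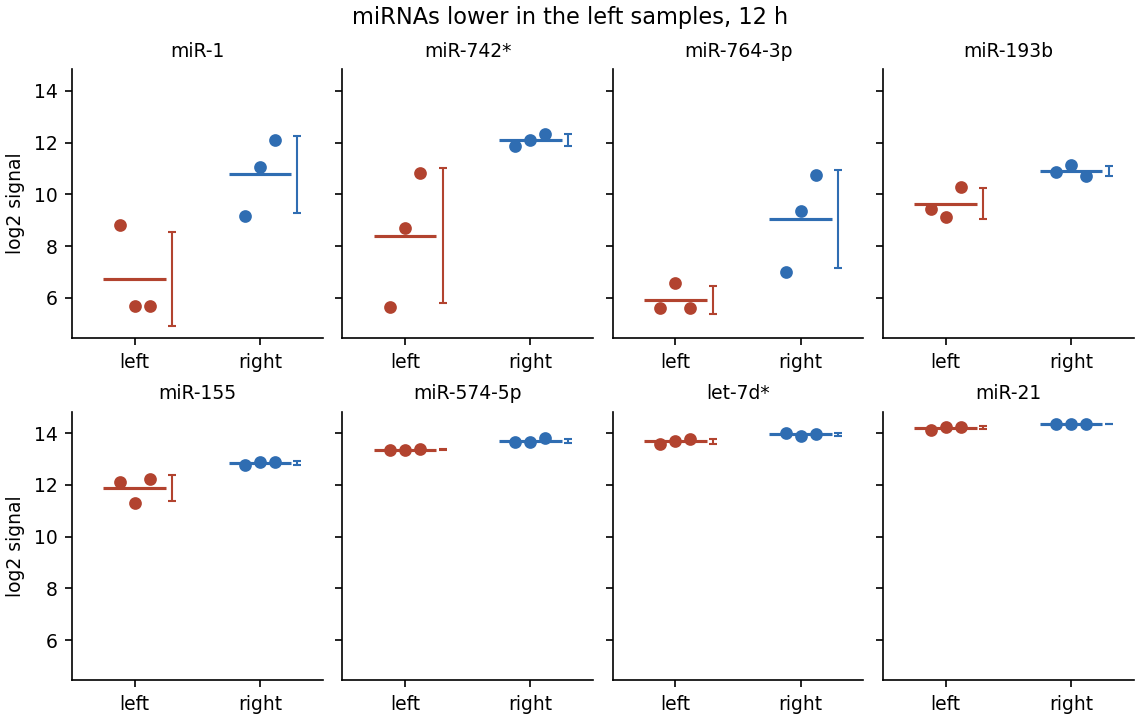
Normalised log2 signal (vertical axis) of 8 miRNAs with every left sample (red) below every right sample (blue) at 12 h, 1 point per sample, with the mean as a line and bars of 1 SD. miR-1, miR-742* and miR-764-3p spread over several log2 units, while miR-574-5p, let-7d* and miR-21 are separated by 0.33, 0.26 and 0.14 log2 units with narrow groups.

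Among miRNAs with every left sample below every right one was miR-1, a muscle miRNA. It was at 8.83, 5.70 and 5.68 on the left and 9.15, 11.07 and 12.08 on the right. Left sample 1 lay near right sample 1, and the other left samples were at background, with detection on 2 of 6 left and 6 of 6 right arrays. The fitted difference, which rests on left samples at background, was −4.03 ± 1.16 (SE; limma adjusted p = 0.297). With the random block the limma adjusted p was 0.0416, under the same limit as for miR-9. miR-133a, which is transcribed together with miR-1 in muscle, was detected on all 12 arrays and went the other way, at 12.32, 12.17 and 11.67 on the left and 10.50, 10.96 and 11.37 on the right (1.11 ± 0.34 SE; limma adjusted p = 0.363). Of 7 striated-muscle markers 4 were tested, 2 above and 2 below 0, and miR-206 was high in right sample 1 (12.37) and left samples 1 and 2 (10.27 and 11.28) and near background (5.81 to 5.92) in the other samples. The summed signal of that list was 3966 to 7842 on the left and 6807 to 8254 on the right, and its part in the miR-1 difference was not tested.

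miR-742* was at 5.65, 8.69 and 10.84 on the left and 11.85, 12.09 and 12.34 on the right. The right samples lay close together while the left ones ran from background to near the right level (−3.70 ± 1.28 SE; limma adjusted p = 0.399). miR-764-3p, from the serotonin receptor gene Htr2c, was at 5.62, 6.56 and 5.62 against 7.01, 9.36 and 10.75. It was detected on 4 right arrays and no left one, and right sample 1 was at background on both its arrays. No bound is therefore given, and the gap between left sample 2 and right sample 1 lies within background. The fitted difference, which rests in part on such values, was −3.11 ± 1.01 (SE; limma adjusted p = 0.373). miR-193b was detected on all 12 arrays at 9.45, 9.14 and 10.30 against 10.87, 11.12 and 10.72, a difference of −1.27 ± 0.42 (SE; limma adjusted p = 0.373).

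miR-155, a miRNA of activated leukocytes and inflamed endothelium, was at 12.09, 11.29 and 12.21 on the left and 12.77, 12.88 and 12.90 on the right. Every left sample lay below a tight right group, a difference of −0.99 ± 0.27 (SE; limma adjusted p = 0.297). Among the brightest probes the separated differences were small: miR-574-5p was at 13.35, 13.34 and 13.39 against 13.64, 13.64 and 13.79, a difference of −0.33 ± 0.06 (SE; limma adjusted p = 0.201). let-7d*, the passenger arm of let-7d, differed by −0.26 ± 0.06, miR-21 by −0.14 ± 0.04 and miR-23a by −0.24 ± 0.06 (SE; limma adjusted p = 0.251, 0.265 and 0.280). Under scaling to the 75th percentile the miR-21 difference was −0.021. miR-374 at −0.27 and miR-592 at −0.25 were of the same kind, and let-7e at −0.11 lay 0.02 above 0 under scaling to the 75th percentile.

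**Figure D3:**
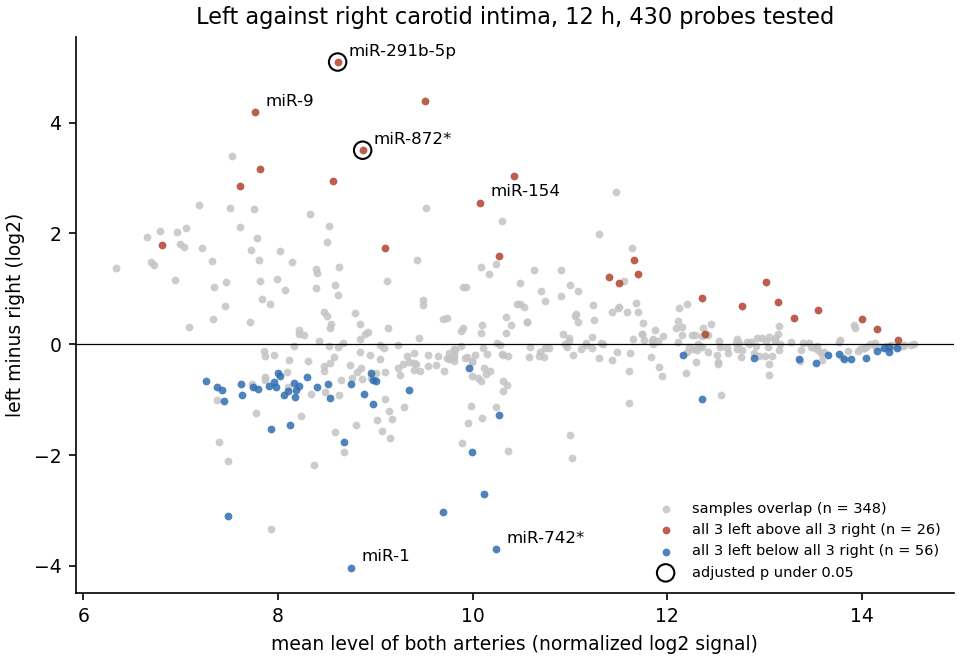
Difference of left minus right (vertical axis, log2) against the mean level of both arteries (horizontal axis, normalised log2 signal) for the 430 tested probes, 1 point per probe. Red points have all 3 left samples above all right ones (26), blue points all below (56), and rings mark the calls, miR-291b-5p and miR-872*; the scatter narrows toward bright probes, and blue points make up 23.7% of the probes under level 8, 16.8% of those from 8 to 10 and 24% of those above 14.

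The separated probes differed by direction in size and in level, which is a description of sets chosen by the same values. The 26 with the left above had a median difference of 1.40 and a median level of 11.4, and 17 of them (65.4%) differed by over 1 log2 unit. The 56 with the left below had a median of −0.75 at a level of 8.75, and 12 (21.4%) differed by over 1. Over all tested probes 105 (24.4%) did so, the median level was 10.2 and 191 values (44.4%) lay above 0. By mean level, the left lay below in 14 of 59 probes under 8 (23.7%), 24 of 143 from 8 to 10 (16.8%), 3 of 108 from 10 to 12 (2.78%), 9 of 95 from 12 to 14 (9.47%) and 6 of 25 above 14 (24%). The left lay above in 4, 5, 7, 8 and 2 of the same probes. The median change of all probes was 0.73 under 8, −0.30 from 8 to 10 and −0.03 above 14, where the median SE was 0.032. Dim probes could enter the test through 1 artery alone, as miR-381 did on the left and miR-764-3p on the right. Each left sample also had more detected probes. The median change of dim probes therefore depends in part on the filter and is no separate result. Quantile normalisation itself narrows the spread of the brightest probes. This split moved with the scaling: with each array scaled to its 75th percentile the median change was 0.11, 287 values (66.7%) lay above 0 and the other 33.3% below, and 56 probes (13%) had the left above and 18 (4.19%) the left below. The number of lower probes therefore depends on the normalisation.

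Signal also came and went between samples. Of 655 probes, 299 were detected on both arrays of all 6 samples and 136 on no array. A further 172 were on both arrays of at least 1 sample and on neither array of at least 1 other. Of the 430 tested probes 111 were on neither array of at least 1 sample. Repeat arrays seldom disagreed: 113 of 3930 pairs of a probe and a sample (2.88%) were detected on only 1 of the repeat arrays. miR-712, a product of pre-ribosomal RNA that disturbed flow is known to raise in endothelium, was one of those that came and went. Its left samples averaged 10.81 ± 0.81 (SD, n = 3), the highest at 11.62, and its right samples were at 12.59, 6.05 and 11.65. Right sample 2 was at background on both its arrays and the others were not, and the difference was 0.72 ± 1.75 (SE; limma adjusted p = 0.902), or −1.29 without right sample 2. miR-142-3p, of leukocytes, was at 9.61, 7.41 and 8.03 against 6.73, 10.60 and 6.92, with right sample 2 the highest of all 6.

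**Figure D4:**
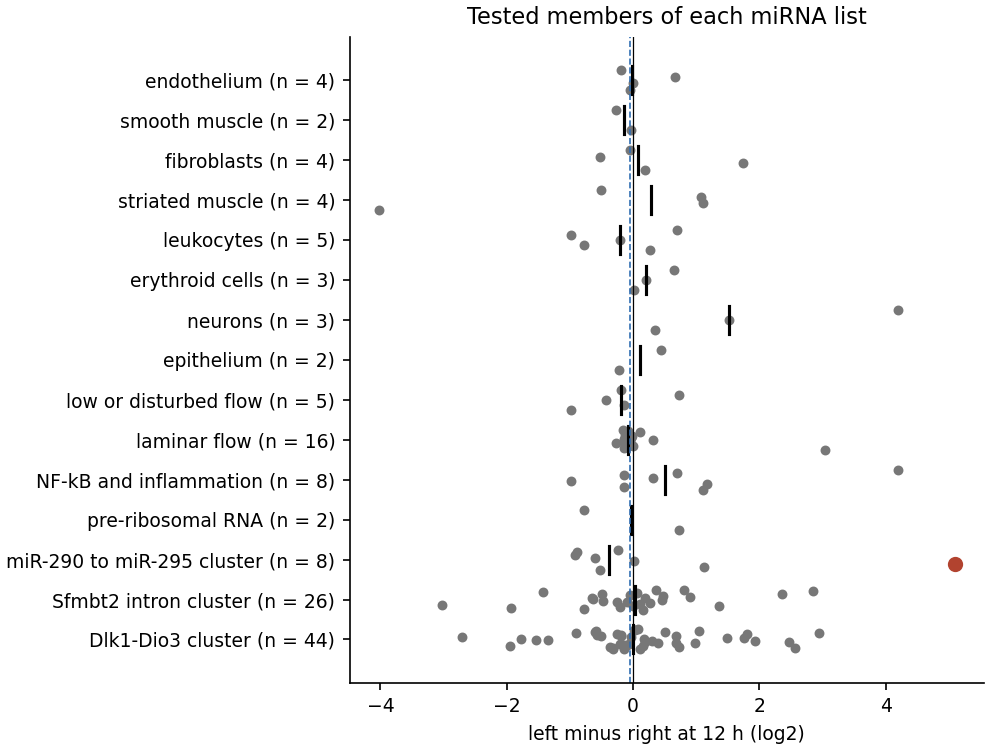
Difference of left minus right at 12 h (horizontal axis, log2) of each tested member of 15 lists of miRNAs, 1 point per probe, with black ticks at list medians and the dashed line at the median of all tested probes (−0.05). The red point is miR-291b-5p, the only list member past the threshold, and most lists scatter on both sides of 0.

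Groups of miRNAs with a known role at the vessel wall showed no member past the threshold (0.465% of all tested probes passed). Of 6 probes for miRNAs raised by low or disturbed flow 5 were tested, 1 above and 4 below 0 with a median of −0.20. They include miR-712 and miR-155, given above, and miR-34a, a p53 target, which was at 7.88, 10.65 and 11.16 on the left and between 8.60 and 11.40 on the right (−0.43 ± 1.15 SE; limma adjusted p = 0.917). All 16 probes for miRNAs raised by laminar flow were tested, 4 above and 12 below 0 with a median of −0.09, and 10 lay above 0 under scaling to the 75th percentile. Of these, miR-27b was at 13.63, 13.86 and 13.90 against 13.93, 13.90 and 13.94, a difference of −0.12 ± 0.08 (SE; limma adjusted p = 0.534).

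The 8 probes for NF-kB-driven and inflammatory miRNAs split 5 above and 3 below 0 with a median of 0.51. miR-132 was at 11.25, 9.98 and 11.89 on the left and 11.29, 9.38 and 9.14 on the right, and miR-146b, a feedback inhibitor of NF-kB signalling, at 9.40, 10.08 and 6.26 against 9.23, 6.51 and 6.46. Both overlapped between arteries, with differences of 1.10 ± 0.78 and 1.18 ± 1.28 (SE; limma adjusted p = 0.582 and 0.777). The 9 let-7 probes lay between −0.11 and 0.07, with 8 below 0, or 8 above 0 under scaling to the 75th percentile.

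Endothelial miR-126-3p, within the gene Egfl7, was at 14.28, 14.40 and 14.37 on the left and 14.38, 14.41 and 14.41 on the right, a difference of −0.05 ± 0.04 (SE; limma adjusted p = 0.582), or 0.04 under scaling to the 75th percentile. miR-221 and miR-222, which share a transcript and a seed, gave 0.66 ± 0.46 and −0.19 ± 0.27 (SE), and the arteries overlapped for both. Smooth muscle miR-145 was at 13.50, 13.93 and 13.84 against 13.99, 14.01 and 14.06, lower in every left sample by 0.27 ± 0.12 (SE; limma adjusted p = 0.497). Of the 5 leukocyte markers, miR-223 lay above and miR-155 and miR-142-5p below in all left samples, and miR-150 (−0.21 ± 0.26 SE) overlapped. Under scaling to the 75th percentile miR-142-5p turned from −0.78 to 0.03. The leukocyte sum was 20661 to 23120 on the left and 20591 to 27578 on the right.

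The neuronal list had 3 of 5 probes tested, all above 0, with a summed signal of 2301 to 8219 on the left and 1632 to 1801 on the right. miR-9 was one of them, and since it was picked out above as detected only on the left, the sum that includes it is no separate result. Both others target miR-128: one probe gave 0.35 ± 0.48 and the other 1.51 ± 0.75 (SE; limma adjusted p = 0.845 and 0.497). The arteries overlapped for both of these probes, which target the same miRNA, so a shift of the list as a whole is neither shown nor excluded. The other neuronal markers, miR-124 and miR-137, were at background on all arrays.

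Probes with nearly the same target did not always give the same value. 11 miRNAs have 2 probes under the same name, both of which were tested for 5; 3 of these 5 pairs had the same sign. For miR-101a one probe was at 12.02, 11.88 and 11.92 on the left and 10.42, 10.39 and 5.90 on the right, and the other at 12.26, 12.48 and 12.30 against 12.51, 12.65 and 12.31. The first separated the arteries and the second did not, with differences of 3.03 ± 1.27 and −0.14 ± 0.16 (SE; limma adjusted p = 0.495 and 0.780). For miR-199a-3p the second probe had a single low sample, right sample 3 at 7.40, beside 11.99 to 12.87 in the others, and a difference of 1.74 ± 1.43 (SE).

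A sequence feature was shared by several separated miRNAs, and it was searched for after their values had been seen, so it carries no test. The letters ACACACAC were looked for in the mature strand only and occur in 8 of the 655 targets (1.22%), repeats counted once per miRNA. Of these, 4 were tested, all above 0 with a median of 0.46, and miR-467f (0.47 ± 0.11 SE), miR-466i (0.45 ± 0.12) and miR-466f-3p (0.27 ± 0.08) had every left sample above every right one (limma adjusted p = 0.251, 0.280 and 0.297). Over all tested probes 6.05% separated with the left above and 44.4% lay above 0. The wider list of miR-297, miR-466, miR-467 and miR-669 probes had 26 tested, 14 above and 12 below 0. At 48 h miR-466i, miR-466f-3p and miR-669f differed by −0.49, −0.45 and −0.17, and miR-467f by 0.30. The complementary letters GUGUGUGU occur in 9 targets (1.37%), of which 6 were tested, 3 above and 3 below 0, with miR-574-5p lower in all left samples. Many of these miRNAs have near-identical relatives, so which of them gave the signal is uncertain.

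**Figure D5:**
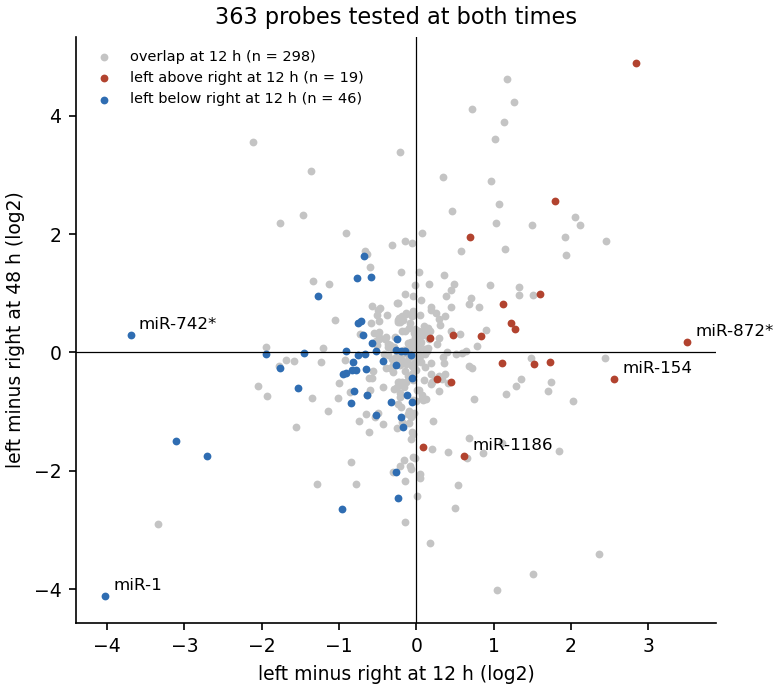
Difference of left minus right at 48 h (vertical axis, log2) against the same at 12 h (horizontal axis, log2) for the 363 probes tested at both times, 1 point per probe. Red and blue points had separated samples at 12 h (19 above, 46 below), and they lie on both sides of 0 at 48 h. miR-872* is near 0 at 48 h. The miR-1 difference is far below 0 at both times and rests on samples at background.

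The 48 h samples, none of which are shared with 12 h, place these values in time. A contrast of the 12 h difference minus the 48 h difference passed the threshold for 1 of 474 probes (0.211%), and 49 (10.3%) had an unadjusted p under 0.05. The 1 probe was miR-291b-5p, with a fitted contrast of 4.95 ± 0.27 log2 units (SE; limma adjusted p = 2.47e-09). That value and its error are no bound, since the right arrays of 12 h and both arteries at 48 h were at background, and the size is known only as the bound of at least 10.6-fold between the arteries at 12 h. The probe entered the contrast only through the left arrays of 12 h, so the p-value adds no support to the detection counts. At 48 h it was detected on none of the 12 arrays, with levels of 5.54 to 6.04 on the left and 5.45 to 5.84 on the right, so among the 24 arrays it was detected only on the 6 left ones of 12 h. Other probes also shifted between times: miR-155 and miR-142-5p, on all 12 arrays at 12 h, were each on 0 left and 1 right array at 48 h. miR-200c went the other way, from no array to 6 left and 2 right ones. The part of the array sets in such shifts was not tested.

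miR-872* was detected on all 12 arrays at 48 h, over a wide range of 7.63 to 12.98 on the left and 8.28 to 12.18 on the right, with a difference of 0.17 ± 1.12 (SE; limma adjusted p = 0.953). Its contrast of 3.33 ± 1.69 between times did not pass (SE; limma adjusted p = 0.473). At 48 h miR-9 was found on 2 left arrays and no right one, and miR-1194 on none. The muscle miRNA miR-1 differed by −4.12 at 48 h beside −4.03 at 12 h, and it did not pass the test at either time (limma adjusted p = 0.158 at 48 h). At 48 h it was detected on 1 left and 4 right arrays, with a left median of 5.01 and right samples from 5.01 to 13.27. Both differences thus rest on samples at background. miR-742* differed by 0.29 at 48 h, with all 12 arrays detecting it at 11.63 to 13.24, beside −3.70 at 12 h.

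Among the separated 12 h probes, 19 of the 26 higher ones were tested at 48 h, 11 above and 8 below 0 with a median of 0.25. Of the 56 lower ones 46 were tested, 15 above and 31 below 0 with a median of −0.23. Over all 363 probes tested at both times 175 (48.2%) lay above 0 at 48 h with a median of −0.03. Across these probes, which are not independent, the differences at the times had a Pearson correlation of 0.209 and a Spearman correlation of 0.151, given as a description.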

How the data were processed

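The authors deposited a non-normalised intensity and a detection p-value per probe and array, exported with GenomeStudio 2010.2 per the submitters' processing notes; no background step is stated in the sources used here. A second deposited table holds the authors' processed intensity values, used as an alternative. From the non-normalised intensities, log2 signals were computed with neqc (limma 3.58.1, R 4.3.3). It fits the background from the deposited detection p-values, adds an offset of 16 and quantile-normalises the arrays. Repeat arrays were then averaged. Left and right were compared by two-sided tests in limma (lmFit, then eBayes with its trend on intensity), adjusted by Benjamini-Hochberg, with a threshold of 0.05. The 48 h arrays were normalised apart and entered only the contrast between times. The text names the calls, the 12 separated probes of smallest p in each direction, probes detected in 1 artery only, probes past the contrast, list members and the other arms of calls (98 in all), and gives values for part of these. Members and lists were chosen with earlier results of these data known. miR-101a and the ACACACAC group were named after their values were seen. The number of arrays limits the precision. Same-numbered left and right samples had correlations of their deviations of 0.0599, 0.0286 and 0.0245, and differently numbered ones −0.0426 to 0.0109. All were small and the labels state no pairing, so the numbers were not taken as pairs. The same-numbered values were the highest, so pairing is not excluded. Some sequences are not reported here. RefSeq positions are of GRCm38.p6. The deposited coordinates name no build and were not used.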

Additional observations from a re-analysis of the deposited data

Results flagged for a closer look

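miR-291b-5p is listed because its left-right difference at 12 h differed from that at 48 h in the contrast. It entered that contrast only through the left arrays of 12 h, and the other groups were at background. The p-value thus rests in part on values at background and adds no support to the detection counts. The fitted contrast was 4.95 log2 units (limma adjusted p = 2.47e-09), higher on the left in 3 of 3 samples at 12 h, while at 48 h no array of either artery detected it. The right arrays of 12 h were at background too, so this value is no bound, and the 12 h difference is known only as at least 10.6-fold. The neighbouring probe for miR-291a-5p, which shares its seed, was at background on all 12 arrays of 12 h, and the cause of the signal was not tested.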

How the results depend on the processing

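The count of 2 calls at 12 h was the same with 75th-percentile scaling, with the stricter filter (detection p under 0.01 on 6 arrays) and with no intensity trend. It was 1 (miR-291b-5p) with quantile normalisation and no background correction, an offset of 50, the authors' processed values, no filter or a robust trend. It was 72 with every array as a sample, which counts repeat hybridisations as samples, and 6 with the sample as a random block. That block also fits 12 arrays, with 1 correlation shared by all probes, so its p-values can be too small. With the replicate number as a block it was 0 (45 at an unadjusted p under 0.05), and miR-291b-5p and miR-872* had adjusted p of 0.0907 and 0.213. The labels do not pair the samples and the correlations were small, although each sample correlated best with its own number, a hint from the data and not the design. Leaving out 1 sample gave 1 to 2 calls, always with miR-291b-5p and never with miR-872*. The contrast with 48 h gave 1 call with the replicate block and with quantile normalisation, 2 with 75th-percentile scaling, 17 with every 12 h array as a sample, 6 with no filter and 1 to 7 when 1 sample was left out, with miR-291b-5p in each. Probes detected in 1 artery only numbered 3 and 5 at detection p of 0.01 and 0.1, and 6 to 12 with 1 sample left out, where fewer arrays must concur. Separated probes with the left above numbered 56 with 75th-percentile scaling and 35 to 47 with 1 sample left out, and those with the left below 18 and 71 to 106, where fewer samples must separate; these settings were chosen after seeing the data. Of 843 values of 50 named miRNAs under 17 settings, 783 kept their direction and side of the threshold, 32 passed it, 13 no longer did and 15 changed sign. Under 75th-percentile scaling the sign changed for let-7e (0.020), miR-126-3p (0.039), miR-208b (0.075), miR-142-5p (0.028) and miR-291a-3p (0.071). With 1 sample left out, values ran from −0.37 to 0.074 for miR-222, −0.034 to 3.24 for miR-206, −0.42 to 1.53 for miR-142-3p, −1.29 to 1.95 for miR-712, −0.027 to 0.73 for miR-128 and −1.26 to 0.59 for miR-34a. Their signs changed without left sample 1 (miR-222, miR-142-3p, miR-34a), left sample 2 (miR-206, miR-128), right sample 1 (miR-142-3p), right sample 2 (miR-206, miR-712) or right sample 3 (miR-142-3p, miR-34a). The cause of these shifts was not tested. With 3 samples per artery, and dim probes near background on some arrays, differences of low signals are the least certain.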
